A study of Mus musculus with 686 samples.

Results

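The data described here are the brain libraries of the Live Animal Return (LAR) arm of a mouse spaceflight study, in which small RNA was sequenced from 13 organs. They were chosen by their labels, tissue brain and experiment group FL-LAR, HGC-LAR or VGC-LAR, and number 12 of the 686 libraries of the series, with 4 in each group. All 12 came from female BALB/cAnNTac mice aged 3 months, 1 library per mouse. The flight mice (FL) spent 39.5 days on the International Space Station, were brought back alive and were dissected 2 to 4 days after splashdown, following functional assays. The Habitat Ground Control mice (HGC) lived on Earth in the flight hardware with crowding, temperature, humidity and carbon dioxide matched to flight, including the 7 days at double density before the delayed return. The Vivarium Ground Control mice (VGC) lived 4 to a cage in standard conditions, so FL differs from VGC in housing as well as in flight. Only FL went through launch and return, which by the study's account likely included rough seas at splashdown. According to the study's methods, whole hemi-brains were homogenised, so every value mixes the cell types and regions of the brain, and fewer cells of a type and less RNA per cell cannot be told apart. Libraries are named by group and mouse number (1, 5, 13 and 17 in each group, the order in which values are given), and mice that share a number in different groups are different animals.

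MicroRNAs (miRNAs) are RNAs of about 22 nucleotides that guide Argonaute proteins to messenger RNAs, mostly by pairing of the seed, the bases 2 to 8 from the 5′ end, and so lower the output of their targets. Neurons hold very large amounts of miR-124 and miR-9, and the miR-132/212 locus is induced by neuronal activity. The let-7 family rises as cells leave the proliferating state, the miR-17 family is high in dividing cells, and the imprinted Dlk1-Dio3 region gives rise to a large miRNA cluster that is most active in brain. Brain is also known for small nucleolar RNAs (snoRNAs) made from the imprinted stretch between Snrpn and Ube3a, which are scarce in most other tissues.

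The mature sequences of the miRNAs on which the results turn are given here from RefSeq (GRCm38.p6), 5′ to 3′, with the seed in capitals. miR-9-5p marks neurons and their progenitors, miR-132-3p and miR-212-3p are the activity-regulated pair and share 1 seed, let-7c-5p was the most abundant let-7 member, and miR-127-3p stands for the Dlk1-Dio3 cluster.
miR-9-5p: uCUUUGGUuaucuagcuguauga
miR-132-3p: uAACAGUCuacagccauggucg
miR-212-3p: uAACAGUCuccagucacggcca
let-7c-5p: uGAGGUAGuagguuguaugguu
miR-127-3p: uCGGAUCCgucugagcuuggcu
The next set holds miRNAs that were high in a few libraries, separated FL from VGC or ranged widely within every group. miR-17-5p, miR-20b-5p and miR-106a-5p share 1 seed, as do miR-196a-5p and miR-196b-5p, and miR-200b-3p, miR-200c-3p and miR-429-3p.
miR-17-5p: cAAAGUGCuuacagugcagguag
miR-20b-5p: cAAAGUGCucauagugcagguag
miR-106a-5p: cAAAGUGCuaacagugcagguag
miR-196a-5p: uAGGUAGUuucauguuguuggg
miR-196b-5p: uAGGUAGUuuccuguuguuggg
miR-200b-3p: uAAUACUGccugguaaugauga
miR-200c-3p: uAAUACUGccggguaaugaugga
miR-429-3p: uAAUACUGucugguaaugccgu
miR-205-5p: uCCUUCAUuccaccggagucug
miR-206-3p: uGGAAUGUaaggaagugugugg
miR-1943-5p: aAGGGAGGaucugggcaccugga

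The 12 libraries held 26.0 to 84.1 M counts over 7 RNA classes (miRNAs, snoRNAs, snRNAs, tRNAs, rRNAs, lncRNAs and piRNAs) and 3.41 to 10.0 M miRNA counts, and between 692 and 834 miRNAs reached 5 counts in a library. The brain markers were where the label puts them: miR-124-3p had the highest mean level of all miRNAs and miR-9-5p was among the 10 highest, while miR-132-3p was present in every library at a level that varied widely. The library VGC 5 stood apart before any comparison was made. Transfer RNA fragments took 40.7% of its counts against 2.20 to 10.2% in the other 11 libraries, and snoRNAs took 19.0% against 34.8 to 70.1%. Its miRNA profile had a median correlation of 0.881 with the others, against 0.932 to 0.976, and it held the highest level of the 12 for 25.6% and the lowest for 21.9% of the 819 miRNAs tested. Mice killed on orbit or at the matching time (TERM) were aged 3 or 8 months. By the study's account they were killed sooner after launch than the LAR mice. Their carcasses were frozen before dissection, and their brain libraries number 13. Their tRNA shares were 19.0 to 46.1%, a range that holds VGC 5, while their snoRNA shares of 24.8 to 51.3% and piRNA shares of 1.31 to 1.82% do not hold its 19.0% and 2.15%. FL 13 and HGC 1 also held high levels of some miRNAs known from other tissues, described further on. Fold changes of single features against VGC that changed sign or moved by over 1.5 times without VGC 5 are therefore given both ways.

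**Figure D1:**
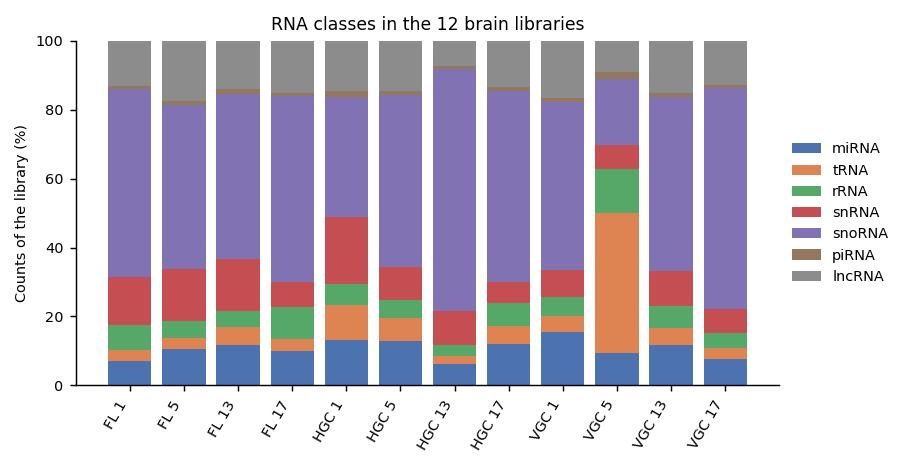
Share of each library's counts (y axis, percent) in 7 RNA classes, 1 stacked bar for each of the 12 brain libraries, ordered FL, HGC and VGC. The bar of VGC 5 differs from all others by its tRNA part of 40.7% and its snoRNA part of 19.0%.

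The comparison of FL with HGC asks what flight added to habitat housing, and that of FL with VGC adds the change of housing. In neither did any miRNA pass the test: with edgeR's quasi-likelihood test over 819 miRNAs, 0 had a Benjamini-Hochberg adjusted p under 0.05 in FL against HGC (0.0% called) and 0 in FL against VGC (0.0% called). The smallest adjusted p was 0.989 in the first and 0.299 in the second. At an unadjusted p under 0.05 the counts were 7 (0.855%) and 129 (15.8%), the latter 54 higher and 75 lower in FL, and DESeq2 called 0 in both. Without VGC 5 the unadjusted count against VGC was 60 of 791, again with 0 called. The count of 7 against HGC was 24 without VGC 5, 23 without HGC 1, 63 without FL 13, HGC 1 and VGC 5, and 72 with a term for the plate number in the library records, where the smallest edgeR adjusted p was 0.0726, and none of these settings called a miRNA. The median log2 fold change of all miRNAs was 0.02 against HGC and -0.07 against VGC, and -0.12 and 0.13 when counts were scaled by library totals over the 7 classes instead of TMM factors. The values below describe levels and their spread, and no direction given for a single miRNA passed the test.

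A second description used a rule modelled on that of the study, a difference of median log2 levels beyond 1 in size together with a Cohen's d beyond 0.5 in size. It was applied to miRNA counts scaled to the library's total over the 7 classes, because totals of mapped reads, the study's denominator, were not used here. By this rule 1 miRNA was higher in FL than in HGC (0.122% of those tested) and 3 were lower (0.366%), while 30 were higher in FL than in VGC (3.66%) and 3 lower (0.366%). The rule carries no error term for the comparison as a whole: leaving out 1 of the 8 libraries compared gave 7 to 19 miRNAs against HGC and 27 to 79 against VGC. Neither split by direction was stable. Against HGC it ran from 0 higher and 7 lower without FL 5 to 18 higher and 1 lower without FL 1, and it was 15 and 4 with miRNA totals as denominator. Against VGC it ran from 59 higher and 1 lower without VGC 1 to 35 and 27 without VGC 17, and it was 26 and 14 without VGC 5, 24 and 24 without FL 13, HGC 1 and VGC 5, and 130 and 6 with miRNA totals. miR-340-5p was the only miRNA that met it in both comparisons in the same direction. Its level, in TMM-scaled CPM of the miRNA class (the scale of all levels that follow within each class), was 212, 394, 256 and 499.5 in the FL libraries, 324, 171, 119 and 143 in HGC and 235, 67.6, 110.3 and 284 in VGC. Every group overlapped the others, and the log2 fold changes were 0.85 ± 0.50 (SE, n = 4 and 4) against HGC and 0.97 ± 0.50 against VGC, with edgeR adjusted p of 0.989 and 0.323.

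miR-124-3p, the most abundant miRNA of neurons, was at 193979, 213910, 180513 and 221640 CPM in FL, 196813, 156956, 211849 and 195689 in HGC and 144707, 64137, 178490 and 162258 in VGC. All 4 FL libraries lay above all 4 VGC libraries, and they overlapped HGC. It differed by 0.56 ± 0.31 on the log2 scale against VGC (edgeR adjusted p = 0.351), 0.30 without VGC 5, and 0.09 ± 0.31 against HGC, with a 95% interval of -0.58 to 0.76 for the latter. Non-overlap of this kind was met by 36 of 819 miRNAs with FL above VGC (4.4% of those tested) and by 20 with FL below (2.44%), and against HGC by 10 (1.22%) and 0 (0.0%).

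Of the 12 tested miRNAs of the neuronal list, 9 were higher and 3 lower in FL than in VGC by sign, with 1 at an unadjusted p under 0.05 (beside 15.8% of all miRNAs), 1 separated from every VGC library and 0 called. Their median log2 fold change was 0.59, beside -0.07 over all 819 miRNAs, and it was 0.30 beside 0.07 without VGC 5. Against HGC 8 were higher and 4 lower, with a median of 0.19 beside 0.02. Together the list took 29.5 to 35.7% of the miRNA counts in FL, 23.7 to 34.7% in HGC and 9.26 to 25.6% in VGC, where 9.26% was VGC 5 and the other 3 libraries held 19.3 to 25.6%. The FL range of this sum lay above the VGC range with or without VGC 5.

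miR-9-5p ran the other way by sign, at 37813, 41262, 46131 and 18099 CPM in FL, 26851, 48776, 36304 and 46285 in HGC and 78856, 34608, 47381 and 50812 in VGC. The groups overlapped and FL 17 was the lowest of the 12 libraries. Its log2 fold changes were -0.14 ± 0.36 against HGC and -0.56 ± 0.37 against VGC. miR-9-3p, from the other arm of the same hairpins, was at 4829, 7470, 4726 and 7803 CPM in FL and 4564, 4230, 3852 and 2758 in HGC, so that each FL library lay above each HGC library, with a log2 fold change of 0.69 ± 0.47 and an edgeR adjusted p of 0.989. miR-128-3p, another miRNA enriched in neurons, had the largest fold change of the list against VGC at 1.36 ± 0.49, from 5798, 7385, 3671 and 2525 CPM in FL to 1290, 1127, 2882 and 2227 in VGC, with FL 17 within the VGC range. miR-129-2-3p, at 13946, 18951, 6173 and 46668 CPM in FL, was carried upward by FL 17.

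**Figure D2:**
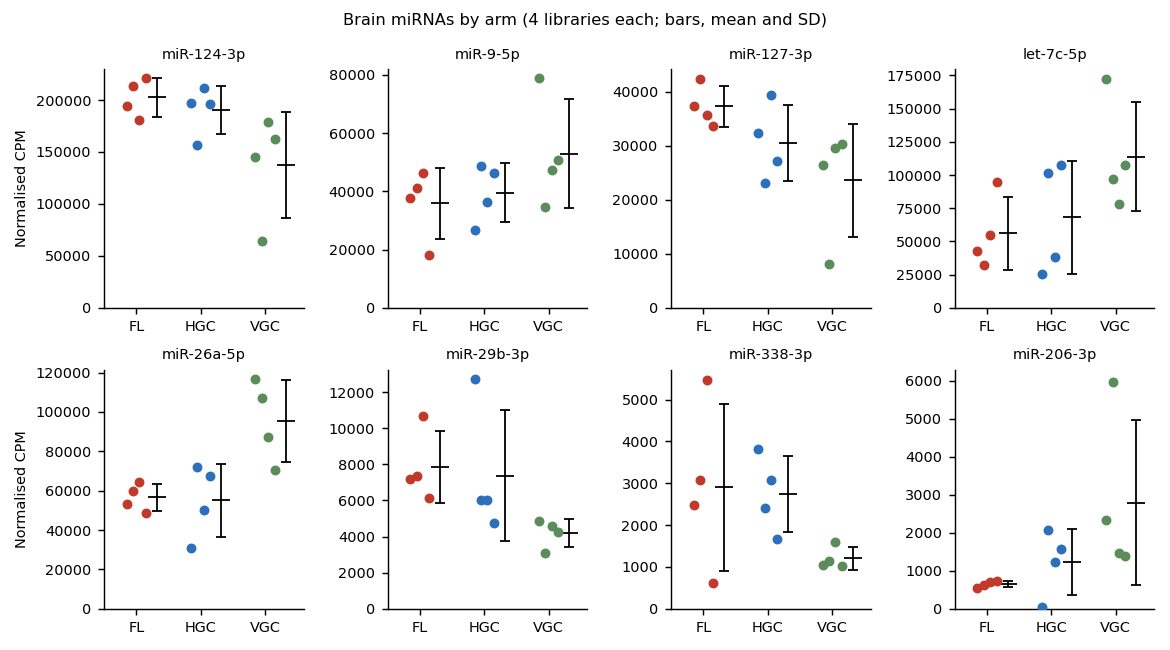
Level of 8 miRNAs in normalised CPM (y axis, linear, starting at 0) in the FL, HGC and VGC groups, with 1 point per library and the mean ± SD of 4 libraries beside the points. FL lies above VGC without overlap for miR-124-3p, miR-127-3p and miR-29b-3p and below it for miR-26a-5p and miR-206-3p, while FL and HGC overlap in each panel.

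The activity-regulated miRNAs did not move as a pair. miR-132-3p was at 144, 97.1, 114 and 5929 CPM in FL, 243, 241, 1200 and 8869 in HGC and 937, 772, 1347 and 71.5 in VGC. FL 17 and HGC 17 held the 2 highest levels, while the other 10 libraries lay between 71.5 and 1347, and the range from lowest to highest was 124-fold. miR-212-3p, which has the same seed and comes from the same locus on chromosome 11, stayed between 857 to 986 in FL, 929 to 1364 in HGC and 645 to 1723 in VGC, a range of 2.67-fold. The 5p arm, miR-132-5p, was at 146, 139.7, 123 and 306 in FL and also highest there in FL 17. The log2 fold changes of miR-132-3p were -0.75 ± 1.40 against HGC and 1.01 ± 1.41 against VGC, with SEs larger than either value, and all 3 tested members of this list stayed uncalled in both comparisons. Their median against VGC of 0.66 became 0.34 without VGC 5 and -0.28 with a replicate block on the mouse number. In TERM brains miR-132-3p ran from 78.0 to 151 CPM in 4 flight libraries, 114 to 5476 in 5 habitat libraries and 21.7 to 2912 in 4 vivarium libraries. The lowest vivarium value came from a library of 0.598 M miRNA counts, and the other 3 held 386 to 2912.

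miR-338-3p and miR-219a-5p, miRNAs of maturing oligodendrocytes, the myelinating cells, were higher in FL than in VGC by sign. miR-338-3p was at 2470, 3066, 5458 and 618 CPM in FL, 3807, 2415, 3081 and 1660 in HGC and 1035, 1148, 1607 and 1020 in VGC. FL 17 lay below every VGC library and the other 3 FL libraries above every one. Against VGC it differed by 1.27 ± 0.52 on the log2 scale (edgeR adjusted p = 0.299), and 1.22 without VGC 5, against 0.08 ± 0.51 for HGC. miR-219a-5p gave 1.05 ± 0.45 against VGC at much lower levels, 34.8 to 77.4 CPM in FL. The other arms did not follow: miR-219a-2-3p, at 2063 to 3558 CPM in FL, gave -0.21 ± 0.46 (-0.51 without VGC 5), and miR-338-5p gave -0.10 ± 0.56 (-0.42 without it). Of the 4 members, 2 were higher and 2 lower against VGC, and against HGC the highest log2 fold change was 0.08 and the median 0.04, or -0.13 with library totals.

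The let-7 family, repressors of growth and pluripotency genes that accumulate in mature neurons, was lower in FL than in VGC by sign for 9 of 9 members tested. The log2 fold changes ran from -1.27 to -0.64 with a median of -1.07, beside -0.07 for all miRNAs. An unadjusted p under 0.05 was met by 5 (beside 15.8% of all miRNAs), though 0 were called and 0 separated the groups fully. The median was -1.12 without VGC 5 and -0.87 with library totals in place of TMM factors, where 0 of the 9 had an unadjusted p under 0.05, against 8 with DESeq2. Let-7c-5p was at 42453, 32086, 55024 and 94565 CPM in FL, 25205, 101422, 38092 and 107527 in HGC and 172229, 97128, 78409 and 107897 in VGC. Only FL 17 reached into the VGC range. HGC fell into a low and a high pair for this miRNA, HGC 1 and HGC 13 against HGC 5 and HGC 17.

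The same split ran through the family. Its summed share of miRNA counts was 16.4, 12.4, 21.4 and 28.4% in FL, 11.5, 31.3, 12.9 and 31.0% in HGC and 41.5, 28.6, 25.5 and 35.0% in VGC. FL 1, FL 5, FL 13, HGC 1 and HGC 13 lay below all other libraries. Against HGC 7 of 9 members were lower by sign, with a median of -0.15 beside 0.02. A term for the plate number, whose step in the work is not stated, turned that median to 1.18 with 9 of 9 higher, and gave -0.88 against VGC with 9 of 9 lower, again with 0 called. 4 libraries, VGC 5 among them, were alone on their plate and carry no weight in that fit.

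miR-26a-5p, among the 3 most abundant miRNAs here, was lower in every FL library than in every VGC library. It was at 52984, 59857, 64621 and 48822 CPM in FL, 31034, 71757, 50318 and 67643 in HGC and 116841, 107277, 87185 and 70258 in VGC. Against VGC the difference was -0.75 ± 0.31 on the log2 scale (edgeR adjusted p = 0.299), -0.70 without VGC 5, and against HGC it was 0.04 ± 0.31. miR-181a-5p, at 57661, 49589, 41609 and 29057 CPM in FL and 61937, 122090, 87267 and 52525 in VGC, overlapped and gave -0.86 ± 0.37. miR-29b-3p, a repressor of collagen and DNA methyltransferase genes that rises with neuronal maturation, lay higher in every FL than in every VGC library, at 7203, 7376, 10690 and 6131 against 4878, 3100, 4612 and 4258 CPM, with a log2 fold change of 0.90 ± 0.37 and 0.75 without VGC 5. In HGC it was at 12732, 6005, 6023 and 4751, where HGC 1 was the highest of the 12. miR-29a-3p, its more abundant relative, gave 0.22 ± 0.28.

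The Dlk1-Dio3 cluster was represented by 25 listed members, all tested. Against VGC 17 were higher and 8 lower by sign, with a median log2 fold change of 0.59 beside -0.07, 4 at an unadjusted p under 0.05 (beside 15.8% of all miRNAs) and 0 called. The median was 0.32 without VGC 5, where 16 were higher and 0 had an unadjusted p under 0.05. Against HGC 18 were higher and 7 lower, with a median of 0.26 beside 0.02. By the rule on medians and Cohen's d 4 of the 25 were higher in FL than in VGC, beside 3.66% of all miRNAs, and 0 lower, and 0 met it against HGC. The cluster's share of miRNA counts was 4.94 to 7.39% in FL, 4.09 to 6.66% in HGC and 1.33 to 4.60% in VGC.

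miR-127-3p took most of that share, at 37398, 42477, 35670 and 33733 CPM in FL, 32342, 23131, 39472 and 27286 in HGC and 26402, 8208, 29648 and 30265 in VGC. Every FL library was above every VGC library, and VGC 5 was the lowest. Against VGC this gave a log2 fold change of 0.66 ± 0.38, or 0.35 without VGC 5, and 0.29 ± 0.38 against HGC. miR-434-3p gave 1.24 ± 0.61, and 0.86 without VGC 5, from 2643, 4835, 1390 and 3947 CPM in FL and 719, 309, 1796 and 2619 in VGC, with FL 13 within the VGC range. miR-431-5p was the other member that separated FL from VGC, at 31.5 to 54.1 against 5.25 to 29.4 CPM. miR-541-5p and miR-379-5p gave negative values, -0.25 ± 0.48 and -0.64 ± 0.41 (-0.52 and -0.83 without VGC 5), so the cluster's members did not share 1 direction.

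The 5 miRNAs with the smallest p against VGC were miR-1943-5p, miR-196b-5p, miR-196a-5p, miR-375-3p and miR-208a-3p, and VGC 5 held the highest level of all 12 libraries for each. miR-1943-5p was at 1.94, 2.25, 2.26 and 2.15 CPM in FL, 1.79, 3.75, 3.17 and 4.34 in HGC and 8.63, 15.6, 5.19 and 3.31 in VGC. Every FL library lay below every VGC library at these low levels, and the log2 fold change was -1.92 ± 0.49 (edgeR adjusted p = 0.299) and -1.41 without VGC 5. Against HGC it was -0.61 ± 0.48. The 5 with the smallest p against HGC were miR-3072-3p, miR-3076-3p, miR-205-5p, miR-1843b-5p and miR-122-5p, all with an edgeR adjusted p of 0.989. miR-1843b-5p was at 181, 246, 166 and 175 CPM in FL, 157, 103, 56.0 and 109.9 in HGC and 94.6, 58.1, 108 and 133 in VGC, so that FL lay above both controls without overlap, by 0.85 ± 0.39 and 0.96 ± 0.39 on the log2 scale. miR-3072-3p, at 66.7, 93.2, 31.4 and 219 in FL and 39.0, 46.1, 27.3 and 48.6 in HGC, overlapped through FL 13 and gave 1.35 ± 0.58. miR-3076-3p stayed under 4 CPM in all 12 libraries.

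miR-206-3p, best known as a muscle miRNA, was low and even in the LAR flight brains. In TERM brains it ran from 554 to 3613 CPM in flight, 465 to 2745 in habitat and 1178.5 to 1853 in vivarium libraries. In the LAR brains it was at 538, 632, 709.7 and 724 CPM in FL, 36.7, 2080, 1237 and 1568 in HGC and 2329, 5974, 1460 and 1396 in VGC. Every FL library was below every VGC library, and below 3 of the 4 HGC libraries, while HGC 1 was the lowest of all 12. The log2 fold change was -2.10 ± 0.81 against VGC (edgeR adjusted p = 0.299), -1.42 without VGC 5, -0.92 ± 0.78 against HGC, and -1.32 without HGC 1. All 6 tested members of the muscle list were lower against VGC by sign, with a median of -2.20 and 4 at an unadjusted p under 0.05 (beside 15.8% of all miRNAs). Without VGC 5 the median was 0.17, with 4 higher and 2 lower.

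The muscle miRNAs other than miR-206-3p were high in VGC 5 alone. miR-133a-3p, a miRNA of skeletal and heart muscle, was at 1774, 37048, 745 and 1775 CPM in VGC, 1090, 2390, 1758 and 3203 in FL and 1040, 1287, 1694 and 2194 in HGC where the highest of the other 11 libraries held 3203. miR-1a-3p was at 232, 14699, 113 and 295 in VGC, and miR-208a-3p, made from a heart myosin gene, was at 1.85, 99.5, 0.153 and 0.221. miR-375-3p, a miRNA of endocrine cells, was at 297, 5557, 214 and 79.5, and the HOX-cluster miRNAs miR-196a-5p and miR-196b-5p were at 8.63, 175, 0.305 and 1.32 and 19.9, 314, 1.98 and 2.87. In every case the second value, VGC 5, was the outlying one. Some blood and vessel miRNAs were also highest there: miR-451a of red cells was at 1876, 19482, 1693 and 2967, miR-143-3p of smooth muscle at 3644, 26237, 2870 and 3521 and miR-223-3p of myeloid cells at 24.2, 693, 33.6 and 27.8. Other blood miRNAs were highest elsewhere, miR-150-5p in FL 17 at 6121 CPM and miR-142a-3p in HGC 1 at 1097.

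The marker lists of other tissues showed the same pattern as a whole. The muscle list took 5.26% of the miRNA counts of VGC 5 and 0.191 to 0.467% of the others, and the vascular list 3.25% against 0.498 to 1.43%. The list for liver, kidney and pancreas took 0.565% in FL 13, 0.295% in VGC 5 and 0.0380 to 0.0762% elsewhere. The blood list took 2.17% in VGC 5, 1.46% in HGC 1 and 0.355 to 1.01% elsewhere. Without VGC 5 the median log2 fold change against VGC went from -0.93 to 0.38 for blood, from -0.71 to 0.42 for vessels and from -2.67 to 0.46 for liver, kidney and pancreas. The part of tissue carried along at dissection in these values was not tested.

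miR-20b-5p, a member of the miR-17 family, was at 2.23, 1.61, 2.71 and 1.08 CPM in FL, 113, 1.36, 2.83 and 1.09 in HGC and 2.00, 464, 1.37 and 3.53 in VGC. HGC 1 and VGC 5 were high and the other 10 libraries lay between 1.08 and 3.53. Its log2 fold change was -3.92 ± 1.90 against HGC and 0.15 without HGC 1, and -5.91 ± 2.07 against VGC and -0.25 without VGC 5, so the direction against HGC turned with 1 library. miR-106a-5p, from the same X-chromosomal cluster, was at 68.8, 0.341, 4.00 and 0.108 in HGC and 1.23, 331, 1.07 and 1.10 in VGC, again high in HGC 1 and VGC 5. Of the 12 tested miR-17 family members, 12 were lower against VGC with a median of -1.67, and 8 were higher and 4 lower without VGC 5, with a median of 0.12.

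miR-205-5p, a miRNA of stratified epithelium, followed the same libraries, at 21.4, 15.5, 26.1 and 12.4 CPM in FL, 1363, 36.5, 30.5 and 13.3 in HGC and 25.6, 5370, 33.6 and 15.5 in VGC. Its log2 fold change of -4.25 ± 1.89 against HGC became -0.50 without HGC 1, and that of -6.17 ± 2.07 against VGC became -0.42 without VGC 5. miR-142a-3p of white blood cells was likewise at 1097, 30.4, 30.2 and 14.9 in HGC and 39.3, 758, 14.3 and 21.6 in VGC. miR-122-5p, the dominant miRNA of liver, was instead high in FL 13, at 63.1, 13.5, 3979 and 53.9 CPM in FL, 164, 167, 19.3 and 54.6 in HGC and 38.2, 357, 17.9 and 52.5 in VGC. Its log2 fold change against HGC was 3.34 ± 1.54 and turned to -1.22 without FL 13.

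**Figure D3:**
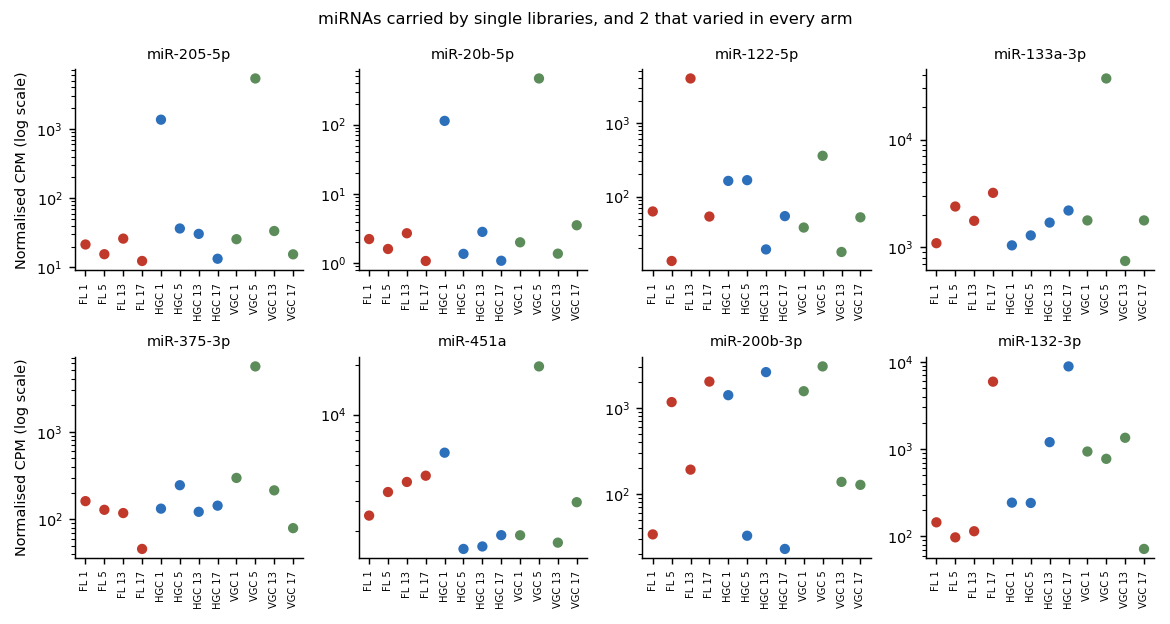
Level of 8 miRNAs in each of the 12 libraries (x axis) in normalised CPM (y axis, log scale), coloured red for FL, blue for HGC and green for VGC. Single libraries (VGC 5, HGC 1 or FL 13) hold the high values of the first 6 miRNAs, while miR-200b-3p and miR-132-3p range widely within every group.

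A further set varied widely between brains of the same group. miR-200b-3p, an epithelial miRNA, was at 33.9, 1172, 192 and 2029 CPM in FL, 1410, 32.8, 2614 and 23.0 in HGC and 1569, 3046, 138 and 128 in VGC. Each group held both low and high libraries, and the highest of the 12 was 132 times the lowest. miR-429-3p, which shares its seed, was high in the same libraries, at 49.9, 1711, 309.6 and 4162 in FL, 1855, 42.0, 2266 and 37.5 in HGC and 5237, 5678, 172 and 198 in VGC. The log2 fold changes of miR-200b-3p, -0.25 ± 1.41 and -0.51 ± 1.42, were small beside their SEs, and the latter turned to 0.55 without VGC 5. miR-204-5p, which is high in choroid plexus, varied less, from 7878 to 32179 CPM in FL to 7243 to 28495 in HGC and 9262 to 33553 in VGC, and FL 17, HGC 17 and VGC 17 were the highest of their groups. Of the 13 tested members of the choroid and epithelial list, 7 were higher against HGC and 4 against VGC, with medians of 0.06 and -0.31. The first was -0.26 with library totals and the second 0.21 without VGC 5, so neither direction held.

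The stress, hypoxia and inflammation list held 8 miRNAs, of which 3 were higher and 5 lower against HGC, 4 higher and 4 lower against VGC, and 0 called. The number at an unadjusted p under 0.05 against VGC was 4 (beside 15.8% of all miRNAs), and 0 without VGC 5. miR-34a-5p, a p53 target, was at 3273 to 7156 CPM in FL and 2802 to 7621 in VGC and gave -0.04 ± 0.42, and -0.25 without VGC 5. miR-210-3p, the main hypoxia-induced miRNA, gave -0.10 ± 0.36 and 0.04 ± 0.36, with a 95% interval of -0.86 to 0.67 against HGC and 0.27 against VGC without VGC 5. miR-21a-5p gave -0.07 ± 0.62 and 0.30 ± 0.62, the latter 1.11 without VGC 5. miR-155-5p and miR-146a-5p, induced in immune activation, gave -3.60 ± 1.14 and -1.89 ± 0.61 against VGC, where VGC 5 held the highest levels of both, and -0.51 and -0.68 without it. The pituitary and hypothalamic list had medians of 0.08 and 0.27 for its 3 members, which were -0.19 against HGC with library totals and -0.02 against VGC without VGC 5, with miR-7a-5p at 2332 to 5082 CPM in FL and 1339 to 4699 in VGC.

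**Figure D4:**
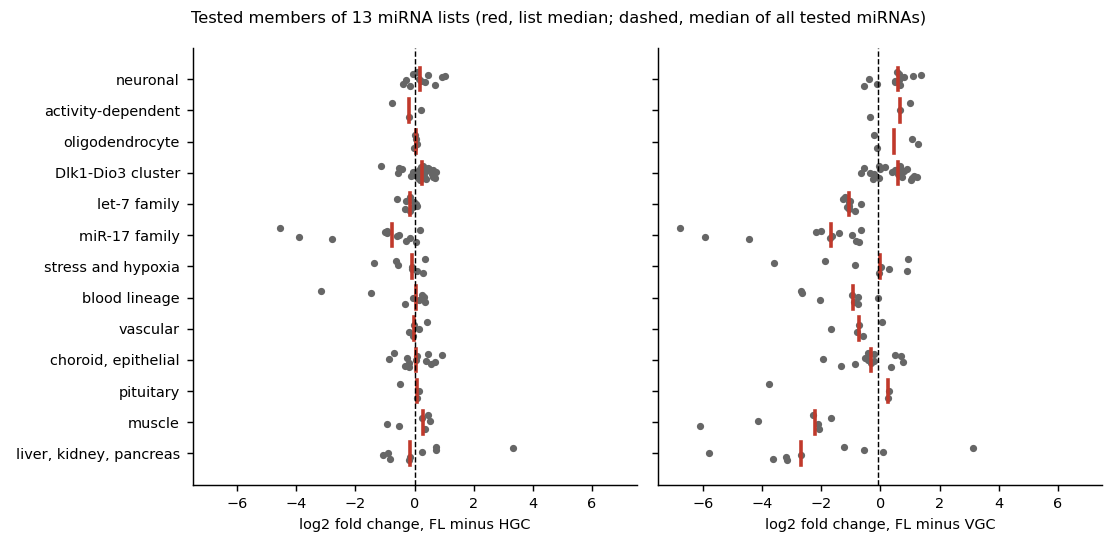
Log2 fold change of FL minus HGC (left) and FL minus VGC (right) for the tested members of 13 miRNA lists, 1 point per miRNA, with the list median in red and the median of all 819 tested miRNAs as a dashed line. Against HGC the list medians run from -0.75 (miR-17 family) to 0.30 (muscle), which were 0.05 and 0.10 without FL 13, HGC 1 and VGC 5, and against VGC they run from -2.67 (liver, kidney and pancreas) to 0.66 (activity-dependent). Without VGC 5 the activity-dependent median is 0.34, the muscle, blood, vessel, miR-17, liver and choroid and epithelial medians turn positive and the pituitary median turns negative.

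The other 6 RNA classes also gave no call in edgeR's test. For FL against HGC and against VGC in turn, 0 of 394 tRNAs, 0 of 169 rRNAs, 0 of 698 snRNAs, 0 of 617 snoRNAs, 0 of 417 piRNAs and 0 of 1816 lncRNAs were called (0.0% in each). The counts at an unadjusted p under 0.05 were 4 and 79 for tRNA, 1 and 12 for rRNA, 9 and 72 for snRNA, 5 and 47 for snoRNA, 22 and 41 for piRNA and 149 and 60 for lncRNA. Without VGC 5 those against VGC were 77, 10, 74, 14, 47 and 112 in the same order, and 1 tRNA was called. The directions moved with VGC 5, though not with it alone. Of the lncRNAs at this threshold against VGC 51 of 60 were higher in FL with it and 11 of 112 without it, and against HGC 144 of 149 and 77 of 126. Of the snRNAs against VGC 33 of 72 were higher with it and 9 of 74 without it, and of the snoRNAs 4 of 47 and 7 of 14. With VGC 5 kept, the snRNA split was 6 of 59 without FL 13, 4 of 63 without HGC 1 and 3 of 34 with a replicate block. The snoRNA split was 17 of 39 without HGC 1. Against HGC the tRNA count went from 4 to 23 without VGC 5, and the snoRNA count from 5 to 11 without VGC 5, 27 without HGC 1 and 70 without FL 13, HGC 1 and VGC 5, where 6 snoRNAs were called. DESeq2 called 3 rRNAs and 10 snRNAs against VGC, 1 lncRNA against HGC and 0 in the other comparisons. Every FL library lay above every HGC library for 8 tRNAs, 2 rRNAs, 27 snRNAs, 1 snoRNA, 3 piRNAs and 107 lncRNAs. FL lay fully below HGC for 2, 2, 3, 1, 5 and 2 in that order. Against VGC it lay fully above for 16, 6, 6, 5, 5 and 38, and fully below for 1, 0, 9, 3, 13 and 11. Rows of near-identical genes shared all their reads here: the 408 tRNA rows held 224 distinct count profiles, so a count of rows is not a count of independent measurements.

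Transfer RNA fragments were mostly of tRNA-Glu, tRNA-Gly and tRNA-Val, which deliver glutamate, glycine and valine to the ribosome and whose 5′ fragments are abundant in small RNA libraries. tRNA-Glu took 20.2 to 36.9% of tRNA counts in FL, 26.6 to 48.5% in HGC and 34.2 to 60.8% in VGC, and tRNA-Gly 24.0 to 32.4%, 15.4 to 30.0% and 10.6 to 17.9%. FL lay above VGC without overlap for the tRNA-Gly share, yet the 27 tRNA-Gly rows had a median log2 fold change of -0.07 against VGC, and 0.49 without VGC 5. Against VGC 19 of 19 tRNA-Glu rows were lower by sign with a median of -1.28, and without VGC 5 the median was -0.39 with 6 higher and 13 lower. The 54 tRNA-Cys rows, 22 distinct profiles, were all lower against VGC with a median of -0.80, and -0.86 without VGC 5. tRNA-Cys-GCA-3-1 was at 3546, 2678, 3489 and 3042 CPM in FL, 5293, 4262, 2633 and 3718 in HGC and 2857, 14096, 3926 and 4124 in VGC, and it overlapped.

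tRNA-Val-CAC-7-1 had the smallest p of the tRNA class against VGC. It was at 0.981, 1.45, 0.300 and 1.63 CPM in FL, 2.47, 2.33, 1.14 and 2.06 in HGC and 10.7, 1.97, 3.33 and 5.86 in VGC, and every FL library was below every VGC library. The log2 fold change was -2.33 ± 0.56 (edgeR adjusted p = 0.168), and without VGC 5 it was -2.66 with an adjusted p of 0.0019. The TMM factor of VGC 5 in this class was 0.208 against 0.742 to 1.58 elsewhere, and scaling by library totals moved the median log2 fold change of all tRNAs from 0.03 to -0.37 against HGC and from -0.09 to -0.62 against VGC, while without VGC 5 the latter was 0.04, so tRNA directions are relative to the class. tRNA-Leu-CAG-4-1 was at 413, 659, 459.7 and 416 CPM in FL and 259, 118, 248 and 359 in VGC, without overlap, and tRNA-Ser-GGA-1-1, under 8 CPM throughout, lay above both controls by 0.80 ± 0.36 and 0.96 ± 0.36.

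Among rRNAs, the abundant 5S copies did not separate. Rn5s, whose counts were identical in 32 rows, was at 17823 to 21046 CPM in FL, 17833 to 21290 in HGC and 15211 to 23594 in VGC, with log2 fold changes of -0.00 ± 0.13 and 0.03 ± 0.13 (0.02 without VGC 5). The 122 tested 5S rows had medians of 0.02 and 0.03, beside 0.02 and 0.03 for all rRNAs, and 0.36 and -0.17 with library totals. n-R5s93, a 5S gene copy, was at 168, 190.3, 185 and 223 CPM in FL, 231, 226, 244 and 243 in HGC and 513, 485, 303 and 199 in VGC. FL lay below HGC without overlap, and of the VGC libraries only VGC 17 fell within the FL range. The log2 fold change was -0.97 ± 0.26 against VGC (edgeR adjusted p = 0.118) and -0.30 ± 0.25 against HGC, and n-R5s93 was called against VGC under 5 of the alternatives.

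Small nuclear RNAs form the core of the spliceosome. Of 11 tested spliceosomal snRNA genes, 7 were lower against HGC with a median of -0.43, beside 0.22 for all snRNAs, and 10 were higher against VGC with a median of 0.33, beside -0.19. Library totals moved the class median to 0.70 and 0.11, and the spliceosomal medians to 0.05 and 0.75. Rnu5g, a U5 gene, was at 5122, 5310, 4788 and 4848 CPM in FL, 6975, 5977, 11322 and 5655 in HGC and 4341, 2813, 4559 and 4386 in VGC. FL lay below HGC and above VGC without overlap, by -0.58 ± 0.24 and 0.32 ± 0.24 on the log2 scale, with edgeR adjusted p of 0.586 and 0.393, and the latter difference was 0.18 without VGC 5. Rnu1a1, a U1 gene whose counts were identical in 7 rows, was at 28428, 26807, 50491 and 8915 CPM in FL and 54578, 34952, 59808 and 45285 in HGC and overlapped. Gm22296, with the smallest p against VGC, was at 2.96, 4.72, 4.94 and 11.8 CPM in FL and 40.9, 11.1, 24.7 and 7.87 in VGC, and it and 2 near-identical rows, Gm23111 and Gm22067, each gave a log2 fold change of -1.82. The smallest edgeR adjusted p of the class against VGC was 0.260. Each of these rows was called against VGC by DESeq2 (adjusted p = 0.0443). The same held for edgeR without FL 17 (adjusted p = 0.0418) and without VGC 17 (0.0477).

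snoRNAs were the largest class in 11 of the 12 libraries, and most of their counts came from between Snrpn and Ube3a. The 202 rows annotated there, 82 distinct profiles, took 77.0 to 83.8% of snoRNA counts in FL, 70.1 to 89.2% in HGC and 46.8 to 85.5% in VGC, where VGC 5 was the lowest. The means were 80.1 ± 3.53% in FL, 81.1 ± 8.37% in HGC and 73.8 ± 18.3% in VGC (SD, n = 4 each), and an exact two-sided permutation test gave p = 0.857 against HGC and 0.886 against VGC. Both sequences below, from the GENCODE M21 transcripts of GRCm38, show why copies cannot be told apart: the first is 1 of 33 rows and the second 1 of 30 rows with the same counts. Capitals mark the TGATGA run that matches the C box consensus near the 5′ end and the CTGA run that matches the D box near the 3′ end, the motifs that bind the snoRNA proteins.
Gm25098: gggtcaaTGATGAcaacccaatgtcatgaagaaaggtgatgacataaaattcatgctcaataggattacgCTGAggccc
Snord116l13: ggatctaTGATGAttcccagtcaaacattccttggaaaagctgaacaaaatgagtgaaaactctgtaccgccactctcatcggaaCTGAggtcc
Gm25098 was at 14067, 13372, 11131 and 17532 CPM in FL, 9371, 15162, 28109 and 18148 in HGC and 16644, 7010, 13255 and 21000 in VGC, and Snord116l13, of the family deleted in Prader-Willi syndrome, at 1733, 834, 1015 and 1180, 533, 1731, 1340 and 1499 and 777, 441, 766 and 1986. All groups overlapped for both. The 17 listed Snord116 rows, 4 distinct profiles, had medians of -0.10 against HGC and 0.26 against VGC, and -0.01 against VGC without VGC 5. Scaling by library totals turned the first to 0.09, so neither direction held. Snord64, from the same imprinted stretch, was at 1016, 1286, 1504 and 411 CPM in FL, 2817, 1363, 856 and 557 in HGC and 572, 374, 475 and 614 in VGC, with FL 17 within the VGC range and a log2 fold change of 1.05 ± 0.48. Snord78, encoded in a growth-arrest host gene, was at 53.9, 654, 72.1 and 64.3 CPM in VGC and 19.8 to 66.1 in FL, high in VGC 5 alone.

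PIWI-interacting RNAs silence transposons in germ cells, and in a somatic tissue rows of this class can hold fragments of other abundant RNAs, whose part was not tested. piR-130110, with the smallest p against HGC, was at 37.6, 87.4, 45.4 and 65.2 CPM in FL, 12.6, 13.6, 24.6 and 29.3 in HGC and 40.1, 12.6, 54.1 and 78.0 in VGC. Every FL library lay above every HGC library, by 1.53 ± 0.51 on the log2 scale (edgeR adjusted p = 0.853), and FL overlapped VGC. oocyte_piRNA458 was high in HGC 1, at 451, 13.6, 5.27 and 8.22 CPM in HGC. oocyte_piRNA1270, with the smallest p against VGC, was at 2121, 1744, 3051 and 1789 in FL and 3826, 11349, 4659 and 2994 in VGC and gave -1.39 ± 0.45, or -0.77 without VGC 5. Its raw counts ran close to those of tRNA-Glu-CTC-5-1 in every library. They were 2033, 1696, 2420 and 823 in FL, beside 1963, 1626, 2319 and 809 for the tRNA row. In VGC they were 2579, 22473, 3443 and 1228, beside 2445, 21425, 3349 and 1185. Whether both rows hold the same reads was not tested.

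Mir124a-1hg, the host transcript of a miR-124 gene and the most abundant lncRNA row, was at 148610, 217034, 199907 and 137529 CPM in FL, 340330, 100543, 208672 and 142978 in HGC and 99033, 22910, 134263 and 102974 in VGC. FL lay above VGC without overlap, with a log2 fold change of 0.97 ± 0.49, or 0.26 without VGC 5, and reads of the host and of miR-124 itself cannot be told apart. The most abundant transcript of Rian, a maternal Dlk1-Dio3 RNA that hosts snoRNAs and miRNAs, gave 0.29 ± 0.51 and 0.68 ± 0.51, which turned to -0.02 and -0.06 without VGC 5. Of the 95 tested transcripts of the brain lncRNA list, 75 were higher and 20 lower against VGC with a median of 0.75 beside 0.01, and 56 and 38 of 94 without VGC 5, with a median of 0.07 beside -0.28. Against HGC 60 were higher and 35 lower with a median of 0.19 beside -0.09, and without VGC 5, whose TMM factor of 2.36 in this class was the highest, 18 were higher and 76 lower with a median of -0.13 beside -0.39.

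The row of Cdr1os with the smallest p of the lncRNA class against VGC, 1 of its 5 tested transcripts, was at 13.8, 12.3, 10.9 and 10.5 CPM in FL, 25.2, 12.4, 7.38 and 12.6 in HGC and 3.16, 1.21, 6.99 and 3.22 in VGC. Every FL library lay above every VGC library, and FL and HGC overlapped. The log2 fold change was 1.71 ± 0.50 against VGC (edgeR adjusted p = 0.516), 1.05 without VGC 5, and -0.26 ± 0.48 against HGC. Gm48657 was at 178, 3.04, 96.6 and 0.167 CPM in FL, 0.774, 0.763, 0.820 and 0 in HGC and 1.26, 0.663, 8.37 and 0.979 in VGC, so that FL 1 and FL 13 alone held the high values. It was the 1 lncRNA that DESeq2 called against HGC, while edgeR gave an adjusted p of 0.440. BC055402 was at 2.16, 5.43, 2.87 and 2.17 CPM in FL, 3.16, 0.844, 2.52 and 1.82 in VGC and 0.774, 0.654, 0.656 and 1.03 in HGC, above HGC without overlap by 1.99 ± 0.53 at levels of a few CPM.

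**Figure D5:**
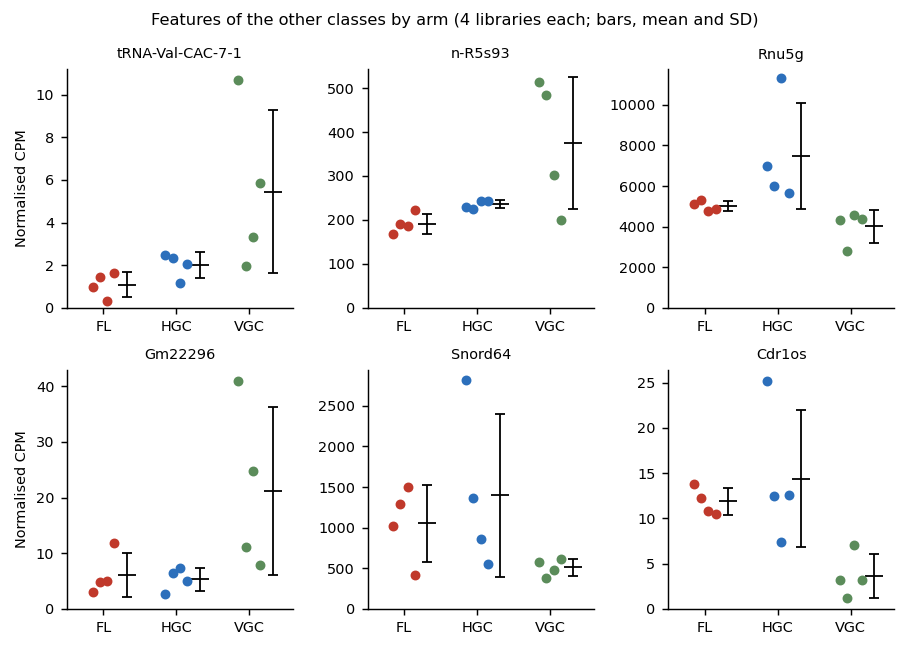
Level in normalised CPM of the feature's own class (y axis, linear, starting at 0) of 1 tRNA, 1 rRNA, 2 snRNAs, 1 snoRNA and 1 lncRNA in the FL, HGC and VGC groups, with 1 point per library and the mean ± SD of 4 libraries. FL lies below VGC for tRNA-Val-CAC-7-1, above VGC for Cdr1os and between HGC and VGC for Rnu5g, each without overlap.

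The division of counts between classes did not separate the groups beyond its spread. snRNA took 12.9 ± 3.86% of counts in FL and 8.06 ± 1.54% in VGC (SD, n = 4 each), the smallest p of the 14 comparisons in an exact two-sided permutation test (p = 0.0857, adjusted p = 0.75), where 4 against 4 libraries allow no p below 0.0286. miRNA took 9.89 ± 1.92% in FL, 11.1 ± 3.20% in HGC and 11.0 ± 3.35% in VGC. tRNA took 3.73 ± 1.04% in FL, 6.11 ± 3.32% in HGC and 13.4 ± 18.2% in VGC, the last through VGC 5.

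Whether the flight comparison in brain differed between LAR and TERM was tested as an interaction over all 25 brain libraries. Age was a term because 5 TERM mice were 8 months old and the others 3. Length of exposure, return and the freezing of carcasses differ together between LAR and TERM, so their parts cannot be told apart. Of 768 miRNAs, 0 had an edgeR adjusted p under 0.05 for FL against HGC and 0 for FL against VGC, with 7 and 86 at an unadjusted p under 0.05, and 32 of 757 for the latter without VGC 5. The TERM vivarium library VGC 8 stood apart in depth, with 352 miRNAs at 5 counts or more against 669 to 865 in the other 12 TERM libraries. Without it, a choice made after seeing the data, 0 of 768 were called in either comparison, with 13 and 105 at an unadjusted p under 0.05. DESeq2 was not run on the interaction. The log2 fold change against VGC after live return minus that in TERM was -0.96 ± 0.65 for let-7c-5p (SE, edgeR adjusted p = 0.513). The same difference was -0.93 ± 0.46 for miR-26a-5p (edgeR adjusted p = 0.437). For miR-124-3p it was 0.76 ± 0.39 (edgeR adjusted p = 0.440), beside medians of 130432 CPM in TERM flight and 172744 in TERM vivarium brains.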

How the data were processed

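Small RNA libraries from 12 brains were analysed. According to the study's methods, the authors isolated RNA with miRNeasy-96 kits, built MGIEasy libraries, sequenced 50 bases single-end and quantified RNA with miRMaster 2.0 on GRCm39 with miRBase 22.1; the annotation of the other classes is not given in the sources used here. The deposited values are raw counts per feature for tRNA, rRNA, snRNA, snoRNA, piRNA and lncRNA, made by the authors without normalization. The deposited miRNA values are estimated counts, of which 0.961% are fractional, and were rounded here. Empty cells were taken as 0. Features needed 5 counts in at least 1 of the 4 libraries of every group. edgeR 4.0.16 in R 4.3.3 fitted its quasi-likelihood model per class to all 12 libraries with TMM factors, and p-values were adjusted by Benjamini-Hochberg within the class. Fold changes carry the SE, computed from the fold change and its F statistic. Shares of counts were compared by exact two-sided permutation, adjusted over 14 tests. DESeq2 1.42.0, other scalings and filters, a plate term, a replicate block and each library left out were alternatives. Libraries are single mice, so p-values measure the spread between mice, and 4 per group limit the precision. The model was tested on simulated data. A naming rule covered the features with the smallest p per class and comparison (5 for miRNA, 3 for other classes), the most abundant ones, the most abundant members of each list, miRNAs meeting the rule on medians and Cohen's d in both comparisons and miR-20b-5p, which the study names. The text describes only a part of these features. Those left out include tRNA-Gln-CTG-1-1, tRNA-Gly-ACC-1-1, n-R5s7, Gm25551, n-R5s71, let-7a-5p, let-7b-5p and let-7d-5p. Outside that rule miR-106a-5p, miR-128-3p, miR-146a-5p, miR-155-5p, miR-210-3p, miR-21a-5p, miR-379-5p, miR-431-5p and miR-9-3p were chosen after their values were seen. Members and lists were chosen with earlier results of these data known. Files of circRNA and scaRNA entered only an alternative for the shares. Lists for Snord115 and mitochondrial rRNA matched no symbol, which does not exclude copies under other names. Sequences are from RefSeq GRCm38.p6 (miRNAs) and GENCODE M21.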

Additional observations from a re-analysis of the deposited data

Results flagged for a closer look

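A library was singled out where its gap to the nearest of the other 3 relative to the group range exceeded the 95% critical value of Dixon's test. Chance flags about 1 in 20 groups. Here 34 of 174 were marked, but many of the features were followed for their small p or for a high level in VGC 5, HGC 1 or FL 13, so that share is not comparable with chance.

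In VGC 5, tRNA took 40.7% of counts. It held 5370.5 CPM of miR-205-5p, 357 of miR-122-5p, 314 of miR-196b-5p, 175 of miR-196a-5p, 5557 of miR-375-3p, 99.5 of miR-208a-3p and 464 of miR-20b-5p. In other classes it held 3248 CPM of tRNA-Glu-CTC-5-1, 654 of Snord78, 114 of oocyte_piRNA458 and 12.6 of Gm22673, all high, and 2813 of Rnu5g, which was low. The snoRNA rows Gm22683, Gm24166, Gm25896 and Gm22498 were high there at 2.19, 2.35, 2.46 and 2.67 CPM. HGC 1 held 1363 CPM of miR-205-5p, 113 of miR-20b-5p and 451 of oocyte_piRNA458. FL 13 held 3979 CPM of miR-122-5p and 368 of oocyte_piRNA164.

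miR-132-3p was high in FL 17 at 5929 CPM and in HGC 17 at 8869, while VGC 17 held the lowest of the 12 levels at 71.5. FL 17 also had the lowest snRNA share of its group at 7.20%, with 3.45 CPM of Gm25974 (high) and 2.09 of Gm25797 (low). HGC 17 held 1.12 CPM of Gm26327 (low), 20.0 of piR-140987 (high) and 0 of Gm48657. VGC 17 held 55.0 CPM of Gm27959 (low). VGC 1 held 27.2 CPM of Gm25974 and VGC 13 held 8.37 of Gm48657, both high. HGC 13 had the lowest lncRNA share of its group at 7.42%.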

How the results depend on the processing

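With 4 libraries a group and 0 features called in every class, the alternatives mainly show where single calls appear. Against VGC, scaling by library totals called 1 tRNA, DESeq2 called 3 rRNAs and 10 snRNAs, filterByExpr called 1 rRNA, and no filter called 4 rRNAs, 2 snoRNAs, 2 piRNAs and 9 lncRNAs. Against HGC, no filter called 1 rRNA, 1 snoRNA, 2 piRNAs and 18 lncRNAs, DESeq2 1 lncRNA and the plate term 1 piRNA. Of the alternatives chosen after seeing the data, counting identical rows once called 2 rRNAs against VGC, and leaving out FL 13, HGC 1 and VGC 5 called 1 rRNA in each comparison and 6 snoRNAs against HGC. Leaving out 1 library gave 0 to 1 tRNAs against VGC (1 without VGC 5), 0 to 4 rRNAs (4 without FL 17, 2 without VGC 17), 0 to 12 snRNAs (12 without FL 17, 10 without VGC 17) and 0 to 1 piRNAs (1 without VGC 13). By the rule on medians and Cohen's d, 4 miRNAs against HGC became 19 with miRNA totals as denominator, 1 with 10 added before the log, 33 without the 3 libraries, 0 by the Wilcoxon test and 7 to 19 with 1 of the 8 libraries left out (4 without any 1 VGC library, which does not enter it). The 33 against VGC became 136, 14 and 0 under the first, second and Wilcoxon settings, 48 without the 3 libraries, and 27 to 79 with 1 library left out. The causes were not tested. Of 1124 alternative fold changes of features followed mainly for their small p, a choice that favours a stable sign, 15 changed sign. Over 174 features of the naming rule, leaving out VGC 5 turned the sign of 45 against VGC and 5 against HGC. Of 182 alternative share differences, 4 changed sign. A replicate block on the mouse number called 0 features in all classes (miRNAs at an unadjusted p under 0.05: 1 against HGC, 64 against VGC). The numbers do not pair the mice: of 12 same-number pairs 1 had a correlation of deviations over 0.1, the range was -0.416 to 0.293, and 1 library correlated best with its own number.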
